A study of Mus musculus with 4 samples.

Results

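The variable segments of the alpha and beta T cell receptor genes were followed as tags of T cell families in tumours. The set was every feature whose symbol starts with Trav, Traj, Trbv, Trbd or Trbj, which gave 241 of the 31253 features counted: 130 Trav, 60 Traj, 35 Trbv, 2 Trbd and 14 Trbj. CD45+ immune cells were sorted from subcutaneous tumours of MC38, a mouse colon adenocarcinoma line, 16 days after 100000 cells had been injected into mice aged 8 weeks, and none of the groups was treated. There were 2 libraries of WT mice and 2 of mice labelled Ufl1 cKO, a conditional knockout of the ligase that attaches UFM1 to proteins. The title of the series places the ablation in T cells, while which Cre was used, and which exons it deletes, is not given in the sources used here. All groups carried the same tumour line, and all cell suspensions were frozen and thawed before they were loaded. Nothing in the labels says that each library is a separate animal, so p-values measure only the spread between these 4 libraries.

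Each developing T cell builds its alpha chain by joining a V segment to a J segment and its beta chain by joining V, D and J segments, so that the joined receptor is inherited by all daughter cells. Many cells of a tumour with the same alpha and beta segments are therefore what a clone that has divided looks like, although unrelated cells can also use the same pair. The alpha chain may be rearranged on both chromosomes, and T cells with 2 transcribed alpha segments are common. The beta locus holds 2 constant segments, Trbc1 and Trbc2, each behind its own D and J cluster. CD8 T cells read peptides on MHC class I and kill, CD4 T cells read MHC class II, and Foxp3 marks regulatory T cells.

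The results turn on a small number of V segments, those of the largest CD8 pair of each library and those seen beside them in the same cells. Their last 60 bases are printed 5′ to 3′ on the coding strand, from transcripts of GENCODE M21 (GRCm38). The codon of the conserved cysteine near the end of the V-encoded part is in capitals. It was found as the letters TGT after TANNNN within the last 25 bases, a match held by 135 of 165 V segments with a transcript (81.8%). The deposited values are counts per named segment, and the sequence is the annotation's, not read from these cells.
Trav12-1: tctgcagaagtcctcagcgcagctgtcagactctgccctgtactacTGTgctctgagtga
Trbv13-3: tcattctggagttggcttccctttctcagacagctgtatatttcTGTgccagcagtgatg
Trav1: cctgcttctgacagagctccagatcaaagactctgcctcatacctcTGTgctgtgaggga
Trav12-3: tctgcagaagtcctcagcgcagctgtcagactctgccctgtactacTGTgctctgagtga
Trbv20: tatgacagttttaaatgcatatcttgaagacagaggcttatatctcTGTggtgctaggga
Trav4-4-dv10: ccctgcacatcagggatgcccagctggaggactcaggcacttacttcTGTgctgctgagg
Trbv13-2: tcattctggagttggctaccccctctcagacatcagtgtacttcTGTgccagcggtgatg
Trav12-2: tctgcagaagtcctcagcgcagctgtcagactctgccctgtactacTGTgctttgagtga
Trav4-3: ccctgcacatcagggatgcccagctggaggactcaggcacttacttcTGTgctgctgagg
Trbv16: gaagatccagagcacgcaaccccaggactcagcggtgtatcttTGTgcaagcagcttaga
Trbv15: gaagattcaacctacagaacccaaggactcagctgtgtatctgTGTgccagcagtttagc
Trav12-1 and Trav12-3 are identical over these bases, as are Trav4-4-dv10 and Trav4-3, so neither pair of segments can be told apart from its end alone. The Trav segments lie on the plus strand of chromosome 14, among them Trav1 at chr14:52427928-52428876, Trav12-1 at chr14:53538191-53538738, Trav12-2 at chr14:53616315-53616914 and Trav4-4-dv10 at chr14:53683647-53684177. The Trbv segments shown lie on the plus strand of chromosome 6, among them Trbv13-2 at chr6:41121396-41121832, Trbv13-3 at chr6:41130147-41130585, Trbv16 at chr6:41151740-41152230 and Trbv20 at chr6:41188273-41188977.

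Only V segments gave UMIs. Of the 130 Trav, 87 had at least 1 UMI, and of the 35 Trbv, 26 had. The 60 Traj, 14 Trbj and 2 Trbd had 0 UMIs in all libraries, so a family of cells could be described by its V segments only. In all, 113 segments held 77075 UMIs, 27366 of them Trav and 49709 Trbv, and 87 segments were seen in every library. The 43 members annotated as pseudogenes held 384 UMIs. The labels name a kit that reads transcripts from their 3′ end, where the constant segment lies, yet V segments held 75.3% to 78.4% of all V and constant UMIs of T cells in the 4 libraries. The 130 Trav fall into 58 groups of near-identical copies that differ by a d or n in the number (Trav7-3 and Trav7d-3), and 40 groups have 2 or more copies. Counts can be split between such copies, so copies were merged wherever a cell was given a segment.

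The libraries held 7352 to 9466 barcodes and 64141857 to 79747752 UMIs. T cells were gated by Cd3d, Cd3e and Cd3g, and split into CD8, CD4 and Foxp3-positive cells by Cd8a, Cd8b1, Cd4 and Foxp3 with no UMI of the gamma-delta constant segment Trdc. Values in series are given for WT first and cKO second, each by replicate number. There were 262, 805, 241 and 696 CD8 cells, 134, 208, 281 and 186 CD4 cells, and 57, 161, 93 and 83 Foxp3-positive cells. The macrophage gene Apoe was at 51.2 to 282 CPM (UMIs scaled to a common total per library and class) in the 3 classes, against 1541 to 3066 CPM in the myeloid cells. Across libraries, 3 gated T cell barcodes were shared, and 1 of them had the same Trbv in both libraries. The targeted gene Ufl1 was at 15, 17.9, 15.5 and 16.8 CPM in CD8 cells and at 10.6, 9.32, 10.2 and 19.4 CPM in CD4 cells, so it was not lower in the libraries labelled cKO. UMIs may lie outside the exons removed, and this does not check the label. The library labelled cKO replicate 2 held Xist at 402 to 495 CPM and no Ddx3y UMI in all 3 classes, while the others held at most 1.05 CPM of Xist and 41.7 to 80.2 CPM of Ddx3y. Sex is not given in the labels, and key values without that library are given beside the results.

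Most gated cells held a beta V segment. A Trbv UMI was seen in 93.1%, 92.4%, 93.4% and 89.1% of CD8 cells and in 91.0%, 91.3%, 86.1% and 90.9% of CD4 cells. In Foxp3-positive cells the shares were 93.0%, 76.4%, 86.0% and 73.5%. Cells that should lack the segments held them rarely: 3.32% to 4.10% of myeloid cells (median 8295 to 10872 UMIs per cell) had a Trbv UMI, against the CD8 cells' median of 5830 to 8571 UMIs. Of NK cells 3.71% to 5.41% had one (median 6451 to 9056 UMIs), and of B cells 0.588% to 3.87% (median 3005 to 3930 UMIs). With every cell thinned to 2000 UMIs, and 7 to 33 shallower CD8 cells per library left out, the CD8 shares were 83.4%, 78.4%, 82.1% and 75.3%. A segment was assigned to a cell when it had the most UMIs of its kind, at least 2 and no tie. Both a Trav and a Trbv were then known for 156, 431, 122 and 349 CD8 cells, 64, 85, 133 and 92 CD4 cells and 32, 64, 43 and 40 Foxp3-positive cells.

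CD8 cells were far more often alike in their receptor segments than CD4 cells were. Taking 2 cells of the same library at random, the share of such cell pairs with the same Trav and the same Trbv was 4.55% and 5.56% in the WT libraries and 1.87% and 3.40% in the cKO libraries. The same share between CD8 cells of different libraries, which measures how often unrelated cells coincide, was 0.217%, 0.258%, 0.224% and 0.202% on average. The within-library share was thus 20.9, 21.6, 8.35 and 16.8 times that background. In CD4 cells it was 0.893%, 0.700%, 0.615% and 0.717%, which was 4.33, 2.42, 1.91 and 2.38 times its own background. Every CD8 library lay above every CD4 library. Cells whose pair occurred in at least 3 cells of their library and class were also counted. They made up 55.1%, 61.0%, 31.1% and 55.9% of CD8 cells with both segments assigned, but 18.8%, 17.6%, 17.3% and 12% of such CD4 cells. This share can rise with the number of such cells, which was 122 to 431 for CD8 and 64 to 133 for CD4. In cKO replicate 1, with 122 CD8 and 133 CD4 cells, it was 31.1% against 17.3%.

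**Figure D1:**
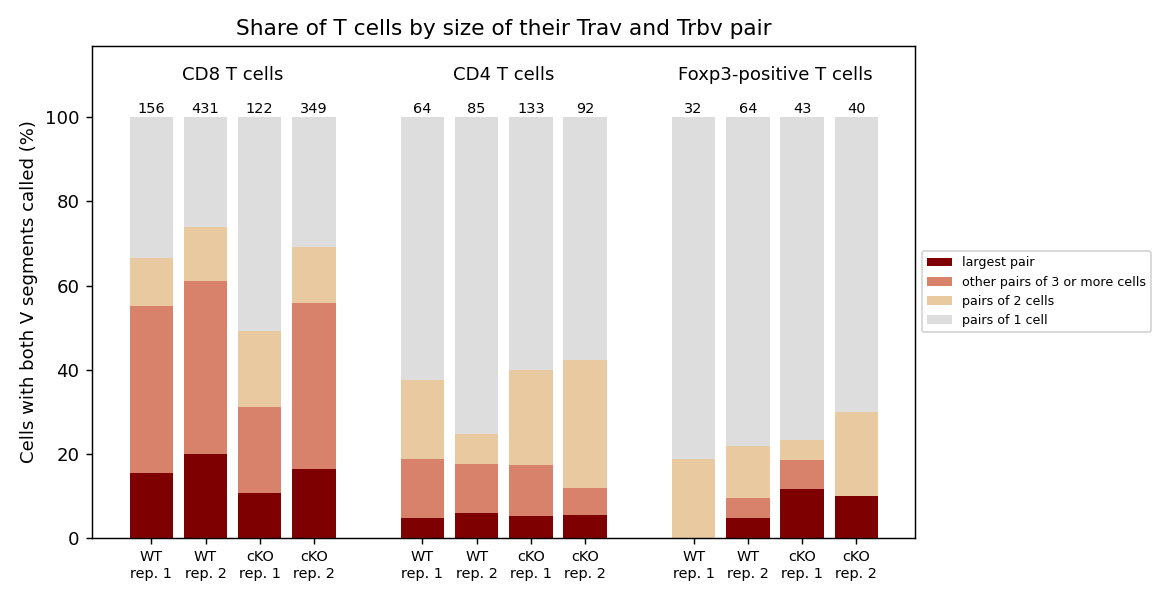
Share of cells with both V segments assigned (y axis, %) by the number of cells that hold the same Trav and Trbv in that library and class; the number over each bar is its number of cells. Cells of repeated pairs (dark bars) make up 31.1% to 61.0% of such CD8 cells and at most 18.8% of such CD4 and 18.6% of such Foxp3-positive cells. The share can rise with the number of cells, which differs between bars.

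The share was higher in both WT than in both cKO libraries for CD8 cells, with means of 5.05% and 2.64% and a difference of -2.42 percentage points (exact two-sided permutation test over 4 libraries, p = 0.333, the smallest that 2 against 2 allows; 0.5 adjusted over the 3 classes). Without cKO replicate 2 the difference was -3.18, and without cKO replicate 1 it was -1.65. The direction did not hold for all ways of counting. Taking Trbv alone, the shares were 7.77% and 13.7% in WT and 9.71% and 7.28% in cKO, and the groups overlapped. The pair measure needs an assigned Trav, and cells without one were not spread evenly over the beta segments.

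**Figure D2:**
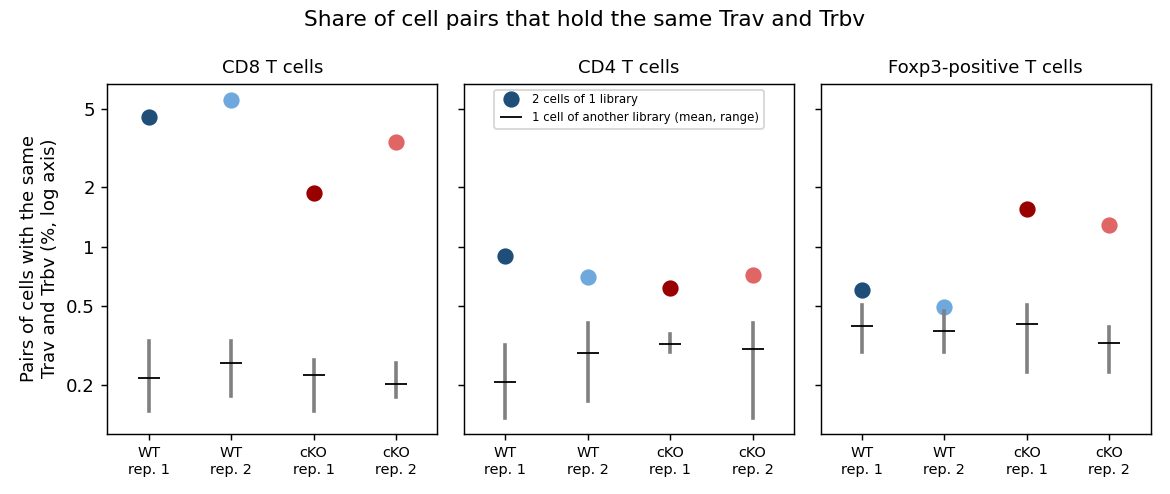
Share of cell pairs with the same Trav and Trbv (y axis, %, log axis) for each library and class; points are pairs of cells from the same library, and bars and ticks are the range and mean over pairs with a cell of each other library. CD8 points lie at 1.87% to 5.56%, all far above their bars, while CD4 points lie at 0.615% to 0.893%.

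Many CD8 cells of cKO replicate 1 shared a beta segment and had no alpha segment. Whether they are 1 clone was not tested. Trbv16 was assigned to 48 CD8 cells of that library, 23.3% of all with a Trbv, and 46 of the 48 had no assigned Trav (95.8%, 95% exact interval 85.7% to 99.5%). Among its other CD8 cells with a Trbv, 24.1% had none. Of the 48 cells, 36 had no Trav UMI at all, although the cells without an assigned Trav were deep, with a median of 13058 UMIs. No Trav here means none counted: whether such cells use a Trav that the counting annotation lacks was not tested. The same was seen for Trbv20 in cKO replicate 2, where 45 of 55 cells had no Trav (81.8%, 69.1% to 90.9%, against 30.5% of the others), and for Trbv12-1 in WT replicate 2, with 19 of 27 (70.4%, 49.8% to 86.2%, against 36.2%). Trbv16 cells of the other libraries with at least 20 such cells lacked a Trav in 38.5% (WT replicate 2) and 14.9% (cKO replicate 2). When no assigned Trav was counted as a segment of its own, an alternative chosen after seeing these values, the CD8 shares became 2.97% and 3.75% in WT and 5.78% and 2.57% in cKO. The cKO minus WT difference then turned to 0.81 percentage points (exact permutation p = 1.00), so no order of the genotypes held across both ways of counting.

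The largest CD8 pair differed in every library. In WT replicate 1 it was Trav12-1 with Trbv13-3 in 24 of 156 cells (15.4%, exact interval 10.1% to 22.0%). In WT replicate 2 it was Trav1 with Trbv20 in 86 of 431 cells (20%, 16.3% to 24.0%). In cKO replicate 1 it was Trav4-4 with Trbv13-2 in 13 of 122 cells (10.7%, 5.80% to 17.5%), and in cKO replicate 2 Trav12-2 with Trbv16 in 57 of 349 cells (16.3%, 12.6% to 20.6%). None of these was large anywhere else: in any other library each was in 0 to 2 CD8 cells. Behind them came Trav3-3 with Trbv20 (15 cells) and Trav16 with Trbv17 (12 cells) in WT replicate 1, Trav7-4 with Trbv16 (36 cells) and Trav13-1 with Trbv20 (27 cells) in WT replicate 2, Trav5-4 with Trbv1 (8 cells) in cKO replicate 1 and Trav10 with Trbv15 (21 cells) in cKO replicate 2. The 5 largest pairs held 44.2% and 43.9% of cells with both segments in WT and 26.2% and 29.5% in cKO. These shares leave out the cells without an assigned Trav, among them 46 with Trbv16 in cKO replicate 1 and 45 with Trbv20 in cKO replicate 2. They therefore give no order of the genotypes in dominance.

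Repeated pairs were repeated in 1 library only, but some were also in a few cells of others. Trav7-4 with Trbv5, in 10 CD8 cells of cKO replicate 2, was in 2 each of WT replicate 1 and cKO replicate 1. There were 10, 25, 7 and 29 pairs in at least 3 CD8 cells, and none of them was repeated in a second library in any of the 6 comparisons of libraries. The same held for the repeated pairs of CD4 and of Foxp3-positive cells, with 0 shared in 12 comparisons. Pairs seen in any number of cells did recur: 48 pairs were common to WT replicate 2 and cKO replicate 2, which is 29.1% of the 165 CD8 pairs of the one and 30.0% of the 160 of the other. Drawn down to 122 cells, CD8 cells held on average 59.2 and 64.3 different pairs in WT and 80.0 and 75.0 in cKO, a count that leaves out the cells without an assigned Trav. Within a library, the CD8 pair Trav4-4 with Trbv13-2 of cKO replicate 1 was also in 3 of its CD4 cells, Trav5-4 with Trbv1 was in 2 CD4 cells and 1 Foxp3-positive cell, and Trav3-3 with Trbv20 of WT replicate 1 was in 2 CD4 cells. The largest pairs of the other libraries were in no CD4 cell.

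Several of the large pairs came with a further V segment in the same cells, counted where a cell held at least 2 UMIs of it. In WT replicate 2, 49 of the 86 cells with Trav1 and Trbv20 also had at least 2 Trav12-3 UMIs (57.0%, exact interval 45.8% to 67.6%), against 6.38% of the library's other CD8 cells with a pair. Trav1 and Trav12-3 share 53.5% of aligned bases, so they are not near-identical copies. Trav12-3 with Trbv20 was itself counted as a pair of 20 cells, and 6 of those had at least 2 Trav1 UMIs. In cKO replicate 2, 39 of the 57 cells with Trav12-2 and Trbv16 also had Trav4-3 (68.4%, 54.8% to 80.1%, against 2.40%), again with 53.5% identity between both Trav. The same cells held a second beta segment, Trbv15, in 37 of 57 (64.9%, 51.1% to 77.1%, against 12.7%), and Trbv16 and Trbv15 share 72.2% of bases. In WT replicate 2, Trav13-1 with Trbv20 came with Trav13-2 in 18 of 27 cells (66.7%, 46.0% to 83.5%, against 2.23%), and these segments are 91.5% identical. Trav7-4 with Trbv16 came with Trav16 in 14 of 36 cells (38.9%, 23.1% to 56.5%, against 5.32%).

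More CD8 cells of the cKO libraries than of the WT libraries held a second Trbv of at least 2 UMIs. The shares were 9.16% and 7.33% in WT and 21.6% and 19.8% in cKO (difference 12.5 percentage points, exact two-sided permutation p = 0.333, 0.5 adjusted over the 3 classes). In cKO replicate 2, Trbv15 with Trbv16 made up 45 of the 138 such cells, and in cKO replicate 1, Trbv12-1 with Trbv16 made up 10 of 52. Without the leading combination of each library the shares were 7.03%, 6.87%, 18.2% and 14.3%, and the groups still did not overlap. Cells with a second Trbv held more UMIs: their median was 12832 against 6713 for the rest in cKO replicate 1 and 11588 against 6399 in cKO replicate 2. In WT the medians were 6164 against 5787 and 9529 against 8493, and the part of droplets with 2 cells in these shares was not tested. Without cells with a second Trbv the same-pair share was 4.16%, 6.36%, 2.47% and 1.51%. In CD4 cells the shares with a second Trbv were 5.97%, 9.62%, 9.25% and 7.53%, with overlapping groups. In Foxp3-positive cells they were 0% and 1.24% in WT and 8.60% and 4.82% in cKO, the same order as in CD8 cells. That difference was 6.09 percentage points (exact two-sided permutation p = 0.333, 0.5 adjusted over the 3 classes). It rested on 0, 2, 8 and 4 cells.

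The constant segment differed between pairs, although it played no part in forming them. Trbc1 and Trbc2 are near-identical over their coding part, so their counts can be split between them. In 5 of the 13 pairs with at least 10 cells every beta constant UMI was Trbc2: 24 UMIs of Trav3-3 with Trbv20, 12 of Trav7-3 with Trbv14, 45 of Trav13-1 with Trbv20, 54 of Trav7-1 with Trbv29 and 34 of Trav7-4 with Trbv5. For Trav13-1 with Trbv20 this allows a Trbc1 share of up to 7.87%, and for Trav7-1 with Trbv29 of up to 6.60%. At the other end, Trbc1 was 138 of 247 UMIs in Trav12-2 with Trbv16 (55.9%, 49.4% to 62.2%) and 59 of 112 in Trav12-1 with Trbv13-3 (52.7%, 43.0% to 62.2%). Cells whose pair occurred once lay between, at 38.9%, 32.7%, 33.5% and 29.3% of UMIs. Trav1 with Trbv20 and Trav13-1 with Trbv20, of the same library and with the same beta V segment, held 43.8% and 0% Trbc1. In the first, 33 of 56 cells with at least 2 such UMIs held both constant segments, and in the second 0 of 12 did. The cells of Trbv16 without a Trav in cKO replicate 1 held 21 Trbc1 and 79 Trbc2 UMIs.

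**Figure D3:**
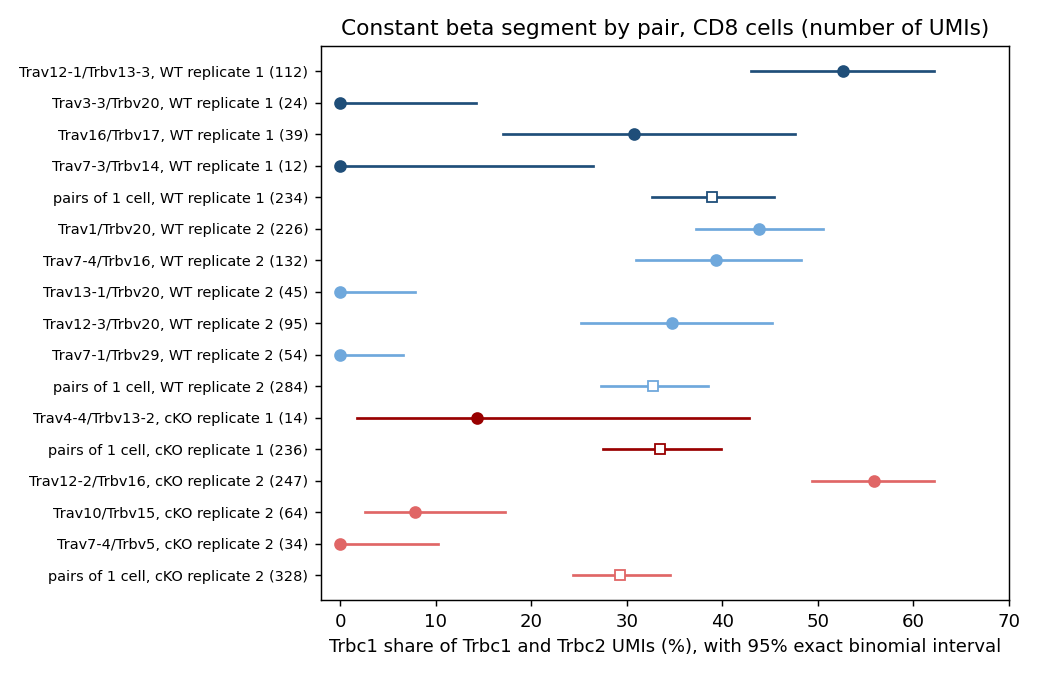
Trbc1 as a share of Trbc1 and Trbc2 UMIs (x axis, %) for each CD8 pair with at least 10 cells (filled circles) and for cells whose pair occurred once (open squares), with 95% exact binomial intervals that cover counting error only. The lowest 5 pairs sit at 0%, and Trav12-2 with Trbv16 is highest at 55.9%.

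Repeats were small in the other classes. The largest CD4 pairs were in 3 cells in WT replicate 1 (4 pairs tied), 5 in WT replicate 2 (Trav4-4 with Trbv20), 7 in cKO replicate 1 (Trav7-3 with Trbv3) and 5 in cKO replicate 2 (Trav7-3 with Trbv13-2). The CD4 same-pair share differed between genotypes by -0.13 percentage points (exact permutation p = 0.667), and the groups overlapped. Drawn down to 64 cells, CD4 cells held 50.0, 55.0, 54.9 and 52.6 different pairs. In Foxp3-positive cells the same-pair share was 0.605% and 0.496% in WT and 1.55% and 1.28% in cKO, a difference of 0.87 percentage points (exact permutation p = 0.333, 0.5 adjusted over the 3 classes). Few cells carried it: Trav14-3 with Trbv2 was in 5 of 43 cells of cKO replicate 1 and Trav10 with Trbv1 in 4 of 40 cells of cKO replicate 2, and without the largest pair of each library the difference was 0.18. By Trav alone it was -0.13, in the opposite direction.

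Single segments were then tested between genotypes on UMIs summed per library and class, with edgeR's quasi-likelihood test and Benjamini-Hochberg adjustment over all features tested. In CD8 cells, 0 of 65 tested members passed, as did 0% of all 10179 features. At an unadjusted p under 0.05 there were 17 members, beside 170 of all 10179 features. DESeq2 called 1 member (0.0295% of all features), Trav4-4-dv10 (log2 fold change 2.89 ± 0.62 SE, adjusted p = 0.0182), the alpha segment of the largest pair of cKO replicate 1. In Foxp3-positive cells, 0 of 36 members passed in edgeR (0% of all 6917 features), and DESeq2 called 0. There, 14 members had an unadjusted p under 0.05, beside 249 of all features. In CD4 cells 1 of 41 members passed, beside 0.0381% of all features (0.0254% higher and 0.0127% lower). Leaving out a library moved these counts: without cKO replicate 1 edgeR called 17 of 74 members in CD8 cells (0.387% of all features), 9 of 52 in CD4 (0.445%) and 1 of 46 in Foxp3-positive cells (0.258%). Without cKO replicate 2 these were 3 of 68 (0.103%), 7 of 57 (0.406%) and 3 of 51 (0.0524%). Without WT replicate 1 they were 2 of 76 (0.0274%), 8 of 55 (0.442%) and 0 of 50 (0.0399%), and without WT replicate 2 0 of 67 (0%), 19 of 55 (0.875%) and 0 of 44 (0%). In these fits 1 genotype has a single library, which is assumed to vary like the others.

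That member was Trav7d-3, a copy of Trav7-3 that differs from it at 4 of 402 bases. Of the last 90 bases 2 differ, shown in capitals.
Trav7-3: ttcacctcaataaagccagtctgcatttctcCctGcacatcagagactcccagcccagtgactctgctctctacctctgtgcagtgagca
Trav7d-3: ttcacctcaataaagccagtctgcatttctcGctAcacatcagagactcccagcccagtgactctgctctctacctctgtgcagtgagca
In CD4 cells Trav7d-3 was at 2.64 and 1.96 CPM in WT and 33.7 and 31.6 CPM in cKO (log2 fold change 3.8 ± 0.46 SE, edgeR adjusted p = 0.0173). Both cKO libraries lay above both WT libraries, and few cells carried the difference. The 56 UMIs of cKO replicate 1 came from 10 cells, 7 of which had Trbv3 and held 51 of the UMIs, the pair already seen as the largest CD4 pair there. The 34 UMIs of cKO replicate 2 came from 8 cells, and the WT libraries had 2 cells and 1 cell. With the copies of Trav7-3 summed the log2 fold change was 1.37 and the call was lost (edgeR adjusted p = 1.00), and DESeq2 gave adjusted p = 0.0668; over the other alternatives of this result it ran from 1.45e-10 (no filter on low counts) to 0.0503. In DESeq2 Trbv15 was called instead (log2 fold change -1.82, adjusted p = 0.0243; edgeR 0.0896). Whether the cKO minus WT effect differed between CD8 and CD4 cells was tested as an interaction, and 1 of 64 members passed (0.0112% of all features), Trav7d-3 again (log2 difference -5.80 ± 0.66 SE, edgeR adjusted p = 0.0105). In CD8 cells it was at 35.6, 6.81, 2.22 and 6.27 CPM, and in WT replicate 1 10 cells with Trbv14 held 55 of its 66 UMIs. Without that library the call was lost (log2 difference -4.58, edgeR adjusted p = 0.238), while over its other alternatives the adjusted p ran from 2.27e-16 to 0.0458. Between Foxp3-positive and CD4 cells 0 of 64 members passed the same test in edgeR (0% of all 8926 features), and DESeq2 called 0. At an unadjusted p under 0.05 there were 8 members, beside 430 of all features. On simulated counts this test recovered only 20.5% of changes of log2 size 2, so 0 calls do not show that the effects are alike.

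The classes of T cells used different segments, and this was tested within libraries, with library as a block. In summed UMIs more cells with a segment and more UMIs per cell cannot be told apart. Between CD8 and CD4 cells 26 of 64 tested members passed in edgeR, beside 24.4% of all features. There were 10 higher (12.1% of all features were) and 16 lower in CD8 (12.3%), and DESeq2 called 17, beside 17.3% of all features. Without WT replicate 2, 14 of 60 members were called (13.6% of all features), and without cKO replicate 2 also 14 of 60 (16.6%). The strongest was Trbv12-1, at 2.69, 17.9, 10.3 and 1.88 CPM in CD4 and 82.1, 32.3, 66.9 and 37.6 CPM in CD8 cells (log2 fold change 2.60 ± 0.39 SE, edgeR adjusted p = 0.000179). The groups did not overlap, and Trbv12-1 was higher in 4 of 4 libraries. Its neighbour Trbv12-2 was at 8.07, 46.7, 29.1 and 17.9 CPM in CD4 and 59.4, 85.7, 110 and 52.2 CPM in CD8 cells (1.57 ± 0.32, adjusted p = 0.00211), again higher in 4 of 4. Trbv14 was at 25.5, 3.98, 3.64 and 25.4 CPM in CD4 and 93.9, 26.5, 62.5 and 34.9 CPM in CD8 cells (1.98 ± 0.38, adjusted p = 0.00257). Lower in CD8 cells were Trbv19, at 204, 103, 83.2 and 137 CPM in CD4 and 70.7, 31.5, 67.8 and 76.5 CPM in CD8 cells (-1.07 ± 0.21, adjusted p = 0.00164), and Trbv5 and Trbv2, each in 4 of 4 libraries. The call of Trbv2 was lost without WT replicate 2 or cKO replicate 2 (adjusted p = 0.0836 and 0.0776). Trbv31 was at 100.8, 101.4, 71.6 and 16.0 CPM in CD4 and 0, 29.0, 11.1 and 19.3 CPM in CD8 cells, lower in 3 of 4 libraries (-2.09 ± 0.47, adjusted p = 0.00440).

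Counting each pair once takes the number of cells per pair out of the share of a segment. It leaves out cells without an assigned Trav. By that count Trbv12-1 was in 12.7%, 3.64%, 5.00% and 8.12% of the CD8 pairs and in 0%, 1.41%, 0.990% and 0% of the CD4 pairs. Of 22 Trbv, 6 were above CD4 in 4 of 4 libraries (Trbv12-1, Trbv12-2, Trbv13-3, Trbv14, Trbv17 and Trbv29) and 2 below (Trbv2 and Trbv3). Of 45 Trav, 6 were above (Trav1, Trav2, Trav3-3, Trav8-2, Trav12-1 and Trav16) and 3 below (Trav4-4, Trav12-3 and Trav14-3). Some of these rest on few pairs. Trav2 was in 1, 4, 1 and 1 CD8 pairs and in 0, 0, 1 and 0 CD4 pairs. Trav4-4 was in 1, 3, 2 and 6 CD8 pairs and in 1, 3, 5 and 4 CD4 pairs. How many segments would lie on the same side in 4 of 4 libraries by chance was not tested. Trbv2 was in 2.82%, 3.64%, 3.75% and 3.12% of CD8 pairs against 6%, 8.45%, 3.96% and 10.0% of CD4 pairs. Segments that led by cells had smaller shares of pairs. Shares of cells are given here over the cells of the class with a segment of that kind assigned. Trbv16 was assigned to 3.15%, 13.9%, 23.3% and 16.0% of CD8 cells but was in 7.04%, 9.09%, 2.5% and 4.38% of CD8 pairs. In cKO replicate 1, 46 of the 48 Trbv16 cells had no assigned Trav and so were in no pair. The same held for 45 of the 55 Trbv20 cells of cKO replicate 2, so these falls do not measure clone size alone. Trbv20 was in 9.01%, 30.4%, 1.46% and 10.1% of CD8 cells and in 4.23%, 7.27%, 2.5% and 1.25% of pairs, below the CD4 share in 3 of 4 libraries. Trav1 went from 22.8% of the CD8 cells of WT replicate 2 to 3.03% of its pairs, where the CD4 share was 0%.

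**Figure D4:**
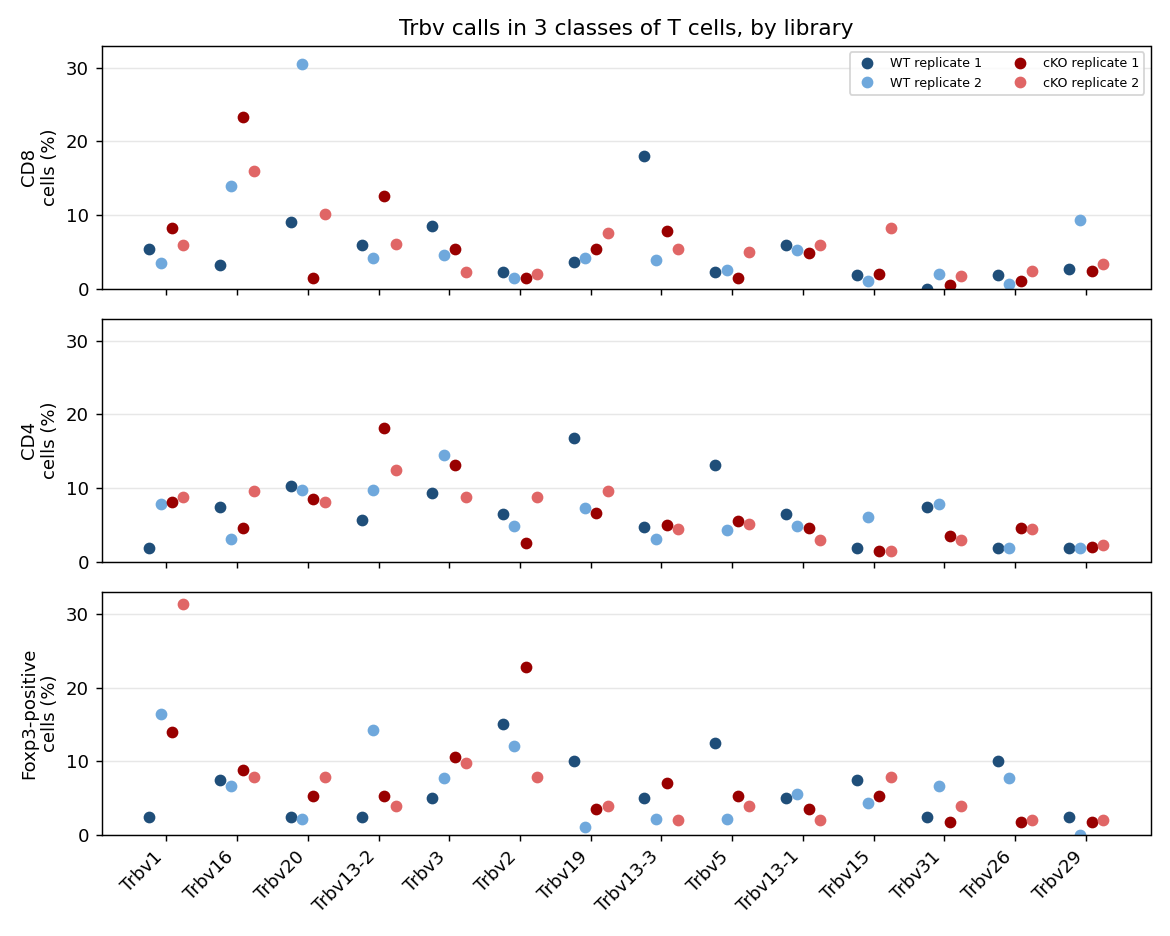
Share of cells with an assigned Trbv that hold each segment (y axis, %) in CD8, CD4 and Foxp3-positive cells, with a point for each library. The high points are single libraries: Trbv20 at 30.4% in CD8 cells of WT replicate 2, Trbv16 at 23.3% in CD8 cells of cKO replicate 1 and Trbv1 at 31.4% in Foxp3-positive cells of cKO replicate 2.

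In each library the most used Trbv of CD4 cells was another than that of CD8 cells, but the leading segments overlapped. The shares that follow are over cells with a segment of that kind assigned. Trbv20 was assigned to 10.3%, 9.70%, 8.59% and 8.09% of CD4 cells, and Trbv13-2 to 12.6% of the CD8 cells of cKO replicate 1. Trbv19 was assigned to 16.8%, 7.27%, 6.57% and 9.56% of CD4 cells, Trbv13-2 was assigned to 5.61%, 9.70%, 18.2% and 12.5% of them and Trbv3 to 9.35%, 14.5%, 13.1% and 8.82%. Of the alpha segments Trav14-3 led in WT replicate 1 with 14.3% and was at 6.54%, 7.83% and 7.89% in the other libraries. The order of these leaders changed between libraries.

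Foxp3-positive cells held fewer UMIs of Trbv19, Trbv13-2 and Trbv14 than CD4 cells, but the share of segments that differed was near that of all features. In edgeR 12 of 64 members passed, beside 17.6% of all features, with 5 higher (8.6% of all features were) and 7 lower (9%). DESeq2 called 9 of 64, beside 13.97% of all features. Trbv19 had the smallest p, at 55.6, 9.37, 9.89 and 17.4 CPM in Foxp3-positive cells against the CD4 values above (log2 fold change -2.61 ± 0.31 SE, edgeR adjusted p = 2.61e-05), and below them in 4 of 4 libraries. Trbv13-2 was at 8.97, 46.8, 31.1 and 17.4 CPM against 75.3, 108, 209 and 135 CPM in CD4 cells (-2.18 ± 0.36, adjusted p = 0.000504). As a share of cells with a Trbv, which does not move with the summed level of all Trbv, Trbv19 was below CD4 in 4 of 4 libraries and Trbv13-2 in 3 of 4, with 14.3% of Foxp3-positive and 9.70% of CD4 cells in WT replicate 2. Trbv14 had no UMI in the Foxp3-positive cells of any library (edgeR adjusted p = 0.0134 against CD4), at 57 to 161 cells each. Higher were Trav7-5, at 169, 60.4, 18.4 and 47.6 CPM against 4.03, 8.95, 20.6 and 8.46 CPM (2.63 ± 0.63, adjusted p = 0.00821; 0.0611 without WT replicate 1), and Trav14-3, whose call was lost with its copies summed (adjusted p = 0.158). Per pair, Trbv2 was above CD4 in 4 of 4 libraries, in 10.3%, 10.7%, 19.4% and 12.1% of the Foxp3-positive pairs, and by cells in 3 of 4. By cells Trbv1 was in 2.5%, 16.5%, 14% and 31.4% of cells with a Trbv, above the CD4 share in 4 of 4 libraries, and per pair in 3 of 4.

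The balance of the chains also set Foxp3-positive cells apart. Trav segments summed to 854, 882, 1001 and 829 CPM in Foxp3-positive cells and to 688, 608, 645 and 686 CPM in CD4 cells. Trbv segments summed to 566, 604, 892 and 779 CPM in Foxp3-positive and to 1297, 1178, 1149 and 1007 CPM in CD4 cells. The groups did not overlap in either sum. The ratio of the sums was 1.51, 1.46, 1.12 and 1.06 in Foxp3-positive cells, 0.531, 0.516, 0.561 and 0.680 in CD4 and 0.387, 0.521, 0.372 and 0.492 in CD8 cells. The alpha constant segment Trac differed by a log2 fold change of 0.00 ± 0.11 SE between Foxp3-positive and CD4 cells (edgeR adjusted p = 0.998). The beta constant segment Trbc2 was lower (-0.79 ± 0.12, adjusted p = 0.000323), and Trbc1 was at -0.64 ± 0.26 (adjusted p = 0.113). The median depth was 4542 to 5881 UMIs per cell in Foxp3-positive and 4513 to 5266 in CD4 cells. Antigen-presentation RNA moved with the class: Cd74, a gene of macrophages and B cells, was at 981 to 3894 CPM in Foxp3-positive and 572 to 1241 CPM in CD4 cells, and its part in the chain balance was not tested.

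Segments of invariant T cells were looked at next. Trav11, the alpha segment of invariant NKT cells, was assigned to 0 of the 1167 CD8, 0 of the 457 CD4 and 0 of the 266 Foxp3-positive cells with a Trav, which allows shares of up to 0.257%, 0.656% and 1.13%. Of the T cells outside these classes and the Trdc gate, 1 of 293 with a Trav held Trav11. Trav1, used by mucosal-associated invariant T cells, was assigned to 3, 106, 5 and 7 CD8 cells, and 86 of the 106 in WT replicate 2 were the pair with Trbv20. The J segments that define both invariant receptors, Traj18 and Traj33, had no UMI. In T cells gated on Trdc the leading Trav were segments that the delta chain shares with the alpha chain (symbols with dv in them): Trav13-4 led in WT replicate 1 (43.6% of cells with a Trav), WT replicate 2 (42.9%) and cKO replicate 2 (33.3%), and Trav15-1 in cKO replicate 1 (41.9%).

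CD8 cells of repeated pairs differed from CD8 cells whose pair occurred once in genes of exhaustion, cytotoxicity and naive or memory cells. The comparison was made within libraries on summed UMIs, 86, 263, 38 and 195 repeated against 52, 112, 62 and 108 single cells, and 88 of 8054 genes passed in edgeR (1.09% of all tested), 40 higher in repeated cells (0.497%) and 48 lower (0.596%); DESeq2 called 84. The V segments formed the groups and are not read here. Of 9 genes of exhaustion and inhibitory receptors 5 were higher and 1 lower, with a median log2 fold change of 1.16 beside 0.00 over all genes. Entpd1, which encodes the ectonucleotidase CD39, was at 72.5, 62.9, 79.4 and 62.6 CPM in repeated and 24.4, 20.1, 32.1 and 17.3 CPM in single cells (1.61 ± 0.17, adjusted p = 0.00453). Tox, a transcription factor of exhausted T cells, was at 105, 123, 145 and 105 CPM against 35.7, 35.8, 68.4 and 48.5 CPM (1.38 ± 0.17, adjusted p = 0.00800). In neither gene did the groups overlap, and repeated cells were higher in 4 of 4 libraries. The inhibitory receptors Havcr2 (1.92 ± 0.30, adjusted p = 0.0189) and Tigit (1.16 ± 0.16, adjusted p = 0.0131) were higher too, and Cd160 was lower (-1.58 ± 0.22, adjusted p = 0.0119). Pdcd1, which encodes PD-1, was at 194, 866, 390 and 676 CPM in repeated and 193, 224, 262 and 193 CPM in single cells and did not pass (1.16 ± 0.29, adjusted p = 0.119), and the values of WT replicate 1 were nearly equal.

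Of 8 cytotoxic effectors 3 were higher in repeated cells, with a list median of 0.90. Perforin, Prf1, was at 70.7, 142, 48.3 and 125 CPM in repeated and 11.3, 21.0, 23.7 and 36.3 CPM in single cells (2.09 ± 0.26, edgeR adjusted p = 0.00792), without overlap. Fasl (0.88 ± 0.15, adjusted p = 0.0279) and Nkg7 (0.62 ± 0.11, adjusted p = 0.0346) were the others, and Gzmk did not pass (1.94 ± 0.48, adjusted p = 0.110). Of 7 genes of naive and memory cells 2 were lower, and the list median was -1.70. Tcf7, a factor of naive and stem-like cells, was at 74.3, 22.7, 24.2 and 14.1 CPM in repeated and 133, 93.5, 161 and 129 CPM in single cells (-2.15 ± 0.33, adjusted p = 0.0179), lower in 4 of 4 libraries. None of 6 proliferation genes, 4 residency genes, 9 signalling genes and 3 constant segments passed. At an unadjusted p under 0.05 there were 4, 3, 2 and 0, beside 1019 of all 8054 genes. All 6 proliferation genes were lower in repeated cells (list median -0.75), all 9 signalling genes were higher (0.08), and 2 of 4 residency genes were higher. Igkc, an immunoglobulin gene of B cells, was at 72.5, 8.39, 44.9 and 8.48 CPM in repeated and 1.88, 1.75, 4.19 and 1.73 CPM in single cells (3.35 ± 0.48, adjusted p = 0.0140). Igkc was singled out after its values were seen, and the part of RNA from other cells in these results was not tested. Depth per cell did not move one way: repeated cells had medians of 5587, 10536, 6607 and 11640 UMIs and single cells 8832, 9358, 8990 and 8682. Leaving out WT replicate 2 left 20 genes called and leaving out WT replicate 1 gave 162, and without cKO replicate 1 and cKO replicate 2 there were 42 and 49. Entpd1, Cd160 and Prf1 passed whichever library was left out. Without WT replicate 2 the calls of Tox, Havcr2, Tcf7, Fasl and Nkg7 were lost, with adjusted p from 0.0508 to 0.192, and Tigit was lost without cKO replicate 1 (0.0556). None of 4 recombination genes passed the filter on low counts.

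The pairs with at least 10 cells were of 2 kinds. Each pair is cells of 1 library, so these values are a description with counting intervals and no test. The 4 pairs of WT replicate 1 and the pair of cKO replicate 1 held Gzmk, a granzyme of less differentiated effector cells, at 781 to 1968 CPM and the chemokine Ccl5 at 9525 to 25979 CPM, with Pdcd1 at 42.8 to 335 CPM. The 5 pairs of WT replicate 2 and the 3 of cKO replicate 2 held Gzmk at 0 to 51.3 CPM and Ccl5 at 41.3 to 1458 CPM, with Pdcd1 at 722 to 1189 CPM and Lag3 at 198 to 422 CPM. Cells whose pair occurred once lay at 47.8 to 90.7 CPM of Gzmk and 187 to 266 CPM of Pdcd1 in the 4 libraries. Depth split in the same way: the pairs of WT replicate 1 and cKO replicate 1 had medians of 3880 to 6536 UMIs per cell. Those of the other libraries had 10138 to 16351, and the 46 cells of Trbv16 without a Trav in cKO replicate 1 had 13058. The part of depth in the 2 kinds was not tested. By pairs alone, the split ran with the replicate number and not with the genotype. The 46 cells of Trbv16 without a Trav in cKO replicate 1 did not follow it: they held Pdcd1 at 813 CPM (exact Poisson interval 744 to 886) and Gzmk at 31.8 CPM (19.4 to 49.1). Trav4-4 with Trbv13-2 of the same library held Pdcd1 at 335 CPM and Gzmk at 781 CPM, so both kinds were present in 1 library. The 45 cells of Trbv20 without a Trav in cKO replicate 2 held Pdcd1 at 909 CPM (830 to 994) and Gzmk at 13.1 CPM (5.27 to 27.0), like the large pairs there. Other such cells were of neither kind: the 19 of Trbv12-1 in WT replicate 2 held Pdcd1 at 499 CPM (392 to 625), Gzmk at 293 CPM (213 to 393) and Ccl5 at 3333 CPM. The 13 of Trbv14 in cKO replicate 2 held Pdcd1 at 134 CPM (69.2 to 234), Gzmk at 112 CPM (53.5 to 205), Ccl5 at 2947 CPM and no Lag3 UMI. Entpd1 was above the cells of single pairs in all 13 pairs, at 45.6 to 99.5 against 17.3 to 32.6 CPM.

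**Figure D5:**
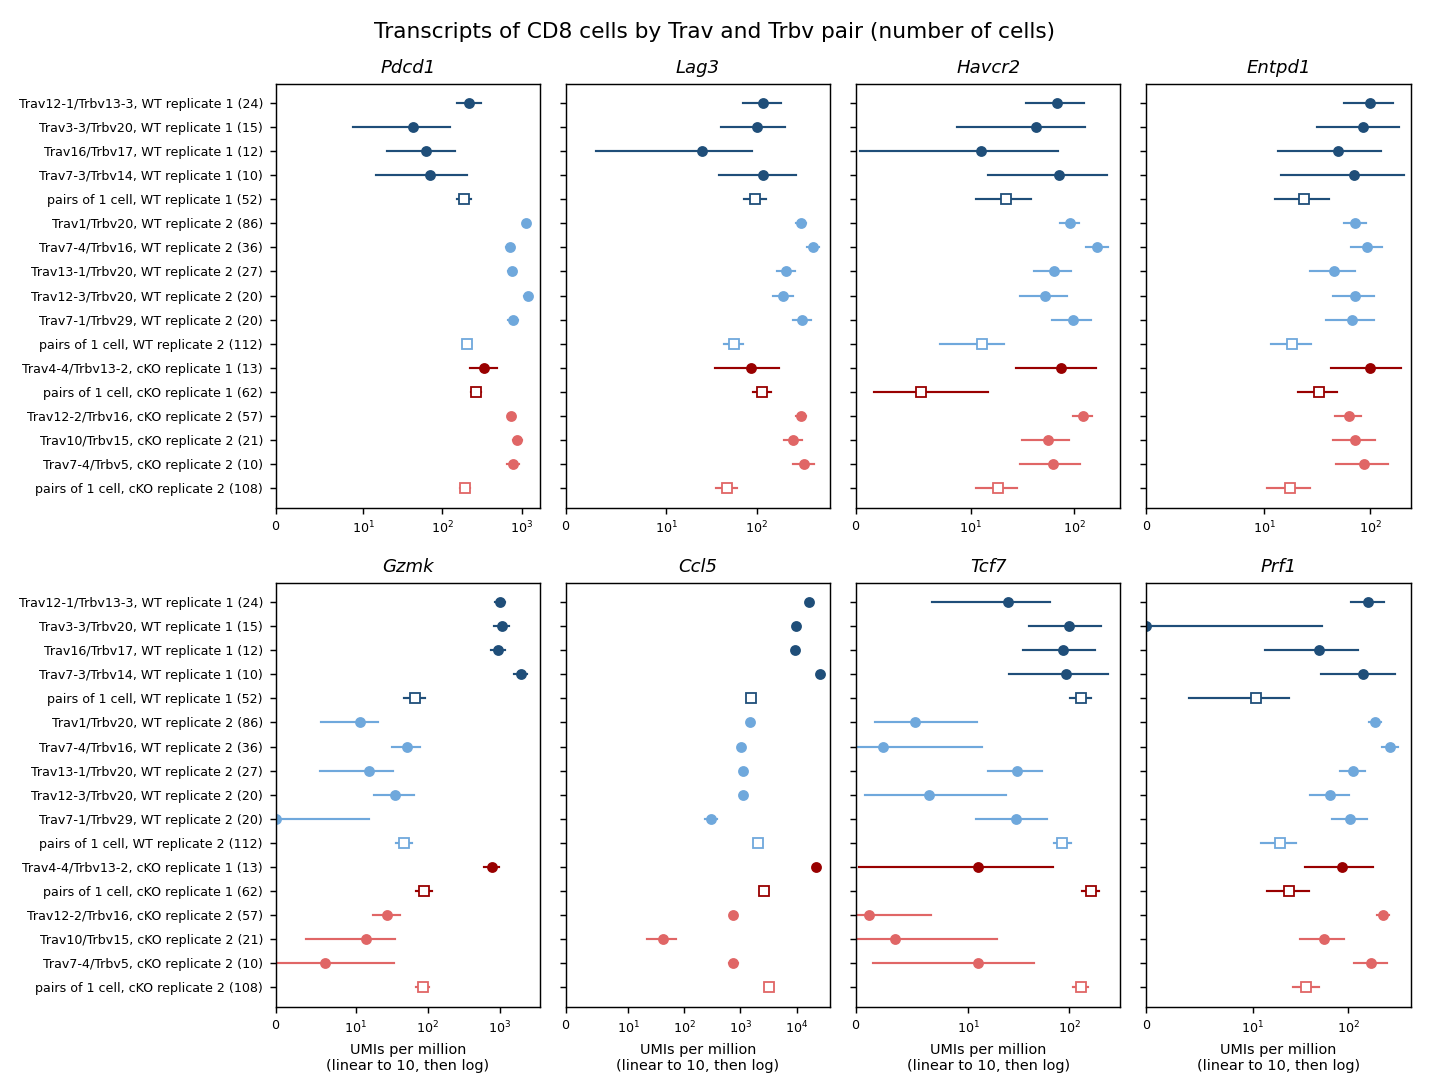
Level in CPM (x axis, linear to 10 and then logarithmic) of 8 genes in each CD8 pair with at least 10 cells (filled circles, number of cells in brackets) and in cells whose pair occurred once (open squares), with exact Poisson intervals that cover counting error only. Gzmk and Ccl5 are high and Pdcd1 low in the pairs of WT replicate 1 and cKO replicate 1, and the reverse in the pairs of the other libraries.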

How the data were processed

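Single-cell RNA-seq of CD45+ tumour cells was analysed from the deposited UMI counts per feature and cell, which the authors made with Cell Ranger 6.1.1, per the file headers. The submitters' processing notes also name CASAVA 1.8 and Seurat, and the genome build and annotation are not given in the sources used here. Segment sequences and coordinates come from GENCODE M21 (GRCm38), which held 31107 of the 31253 feature IDs and 239 of the 241 segments.

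A minimum of 300 genes and a mitochondrial share up to 15% left 32396 of 32801 barcodes. T cells had at least 2 UMIs of Cd3d, Cd3e and Cd3g and at most 1 UMI each of a myeloid and a B cell marker list, and were split by Cd8a, Cd8b1, Cd4, Foxp3 and Trdc. No doublet caller was run, and leaving out cells with a second Trbv of at least 2 UMIs was an alternative. A segment was assigned where it had the most UMIs of its kind, at least 2 and no tie, with Trav copies merged. The planned test used V and J segments together, but J and D segments had no UMI, so cells were compared by Trav and Trbv. A pair in at least 3 cells of a library and class is called repeated.

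UMIs were summed per library and class and tested with edgeR 4.0.16 (quasi-likelihood, TMM, filterByExpr, Benjamini-Hochberg over all features tested, threshold 0.05) under R 4.3.3, and the script was checked on simulated counts. Values printed beside those tests are TMM-scaled CPM, and all other CPM are UMIs over the summed UMIs. DESeq2 1.42.0, other filters, gates and assignment rules, and leaving out each library were alternatives. Counting no Trav as a segment and leaving out the largest pair were chosen after seeing the data. Shares have exact binomial and levels exact Poisson 95% intervals, which cover counting error only, and an upper limit for a count of 0 is 3 cells of the total or the interval's upper bound. Library values were compared by exact permutation (scipy 1.17.1). Named segments are the called members (at most 12 with the smallest p per comparison), the 5 most used per chain and class, those of the largest pairs, and invariant segments. Named genes are those of 8 lists (constant segments, signalling, recombination, exhaustion, cytotoxic, naive and memory, proliferation, residency). The segments and lists were chosen with earlier results of these data known. Some genes of these lists are not reported here.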

Additional observations from a re-analysis of the deposited data

Results flagged for a closer look

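The cKO minus WT effect on Trav7d-3 differed between CD8 and CD4 cells by a test of the difference itself, an interaction in edgeR (log2 difference -5.80 ± 0.66 SE, adjusted p = 0.0105). Trav7d-3 was at 35.6 and 6.81 CPM in WT and 2.22 and 6.27 CPM in cKO CD8 cells, and at 2.69 and 1.99 CPM in WT and 34.0 and 31.9 CPM in cKO CD4 cells of the same fit. In CD8 cells 10 cells of WT replicate 1 held 55 of that library's 66 UMIs. In CD4 cells 7 cells of cKO replicate 1 held 51 of 56 UMIs. The part of these few cells in the difference was not tested.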

How the results depend on the processing

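Counts of called segments without a filter on low counts were 25 of 102 (CD8, cKO against WT, beside 0.363% of all features), 10 of 98 (CD4, 0.341%), 21 of 88 (Foxp3-positive, 0.427%), 44 of 107 (CD8 against CD4, 15.5%), 36 of 107 (Foxp3-positive against CD4, 11.4%), 11 and 15 of 107 (interactions with CD8 and Foxp3-positive cells, 0.235% and 0.309%), and repeated against single cells gave 503 of 14459 genes. DESeq2 called 1 of 65 segments in CD8 cells between genotypes (0.0295% of all features) and 17 of 64 between CD8 and CD4 cells (17.3%). In CD4 cells between genotypes 0 were called with at least 1 CD3 UMI, and 0 with Trav copies merged.

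Leaving out each library gave 7 to 19 calls in CD4, 0 to 17 in CD8 and 0 to 3 in Foxp3-positive cells between genotypes, 14 to 26 between CD8 and CD4 cells, 9 to 16 between Foxp3-positive and CD4 cells, 1 to 3 and 0 to 1 for the interactions, and 20 to 162 genes for repeated cells. Among all features the called share then ran from 13.6% to 26.8% between CD8 and CD4 cells. Between Foxp3-positive and CD4 cells it ran from 11.9% to 16.9%. The CD8 same-pair difference stayed between -3.18 and -1.65.

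The direction turned for 3 results: the CD8 same-pair difference with no Trav counted as a segment (0.81), the Foxp3-positive difference by Trav alone (-0.13) and Gzmb in repeated cells without the largest pairs (-0.071 in place of 0.30). The causes were not tested. Of 387 values for named genes and segments 320 kept their direction and side of the threshold, 55 lost the call, 11 gained it and 1 turned.

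With the replicate number as a block, 0 segments were called in CD8, 1 in CD4 and 0 in Foxp3-positive cells, as without it. Deviations of same-numbered libraries correlated across genes at 0.187, 0.0717 and 0.132 in these classes, with 2 numbers only, and nothing in the labels says that a number pairs libraries. The filter on low counts left 36 segments to test in Foxp3-positive cells (57 to 161 cells per library) and 65 in CD8 cells (241 to 805).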
